A study of Mus musculus with 8 samples.

Results

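The subject here is the nuclear-encoded machinery of mitochondrial respiration in mouse brown adipose tissue, the heat-producing fat: the subunits of respiratory complexes I to IV, the ATP synthase (complex V), and a few genes that carry related names. Genes were chosen by name alone, as those whose symbols start with Nduf, Uqcr, Cox4 to Cox8 or Atp5, together with Sdha, Sdhb, Sdhc, Sdhd, Cyc1 and Cycs. The rule found 92 of the 22552 genes in the table. By their known roles 83 are subunits of complexes I to V, 4 are complex I assembly factors (Ndufaf), and 1 is cytochrome c. The other 4 share the start of a name with a subunit and are not counted as subunits here. With a mean of at least 1 FPKM over both genotypes, 80 of the 83 subunits and all 9 other genes were measured, as were 11597 genes in all. FPKM counts sequenced fragments relative to transcript length and to all mapped fragments, so levels are per length.

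Both genotypes, on a mixed 129SV::FVB/N::C57BL/6 background, were compared at 2 months of age: wild type (WT, mmu-mir-193b +/+) and mice without the microRNA gene (Null, mmu-mir-193b -/-), which by the series title also lack miR-365-1. The Null allele came from floxed mice in which an MMTV-Cre transgene, later bred out, had deleted the gene, so the deletion was inherited rather than made in fat. For mRNA there were 3 WT and 3 Null samples, which the authors combined into 1 FPKM column per genotype. No value below therefore has a replicate error, no difference has a test, and the depth of the libraries is unknown. Differences are given as log2((Null + 1)/(WT + 1)), a scale that understates the change of low genes, and are counted as higher or lower from 1.5-fold on this scale.

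The genotype was checked in 2 small RNA libraries, 1 per genotype. The deleted gene makes miR-193b-3p, whose sequence is printed here because it defines the Null mice, with the seed (bases 2 to 8) in capitals. It lies within the Mir193b hairpin at chr16:13449570-13449591 on the plus strand (RefSeq, GRCm38.p6).
mmu-miR-193b-3p: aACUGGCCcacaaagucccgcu
The microRNA stood at 3705 RPM in the WT library and 11.5 RPM in the Null library. The tissue was checked by its markers, and the brown fat uncoupling protein gene Ucp1 stood at 3016 (WT) and 2487 FPKM (Null). All 10 adipocyte markers listed, not all of them particular to brown fat, were measured in both columns, with a median log2 ratio of -0.08. By 1.5-fold 1 of them was higher, Adipoq (1163 and 1899.0 FPKM, 0.71), and 2 were lower, Elovl3 (88.3 and 17.5 FPKM, -2.27) and Dio2 (18.6 and 9.05 FPKM, -0.97). Markers of other cells differed too: 4 of 7 macrophage genes in the table and all 4 measured red cell genes were higher in Null by 1.5-fold, with medians of 0.65 and 1.43, and muscle fibre genes were lower, as given below beside Cox6a2. By the same fold 7.87% of all genes tested were higher and 6.75% lower. With columns scaled to the same total FPKM 3 of the 7 macrophage genes were higher. The part of these other cells in the subunit values was not tested.

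The respiratory chain passes electrons from NADH (complex I) and succinate (complex II) through ubiquinone to complex III, then by cytochrome c to complex IV, which reduces oxygen. Complexes I, III and IV pump protons, and ATP synthase lets them back to make ATP. Brown fat is packed with mitochondria whose proton gradient is spent as heat by Ucp1, and its ATP synthase content is known to be low for its respiratory capacity. Complexes I, III, IV and V also hold subunits encoded in mitochondrial DNA. Of 13 such genes looked for, 0 were listed in the table, and they were not analysed here.

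Subunits of the respiratory chain were among the most abundant mRNAs of both genotypes. The 83 subunit genes summed to 77705 (WT) and 114682 FPKM (Null), which was 15.3% and 19.4% of all FPKM in the column. They made up 34 of the 100 most abundant genes in WT and 41 of the 100 in Null. Complex IV genes took the largest share of the subunit sum, 35.5% in WT and 39.2% in Null. Complex I followed with 25.6% and 26.1%, ATP synthase with 18.3% and 16.7%, complex III with 15.5% and 14.4%, and complex II with 5.11% and 3.53%. Sums depend on how many genes a complex has, and complex II has the fewest.

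**Figure D1:**
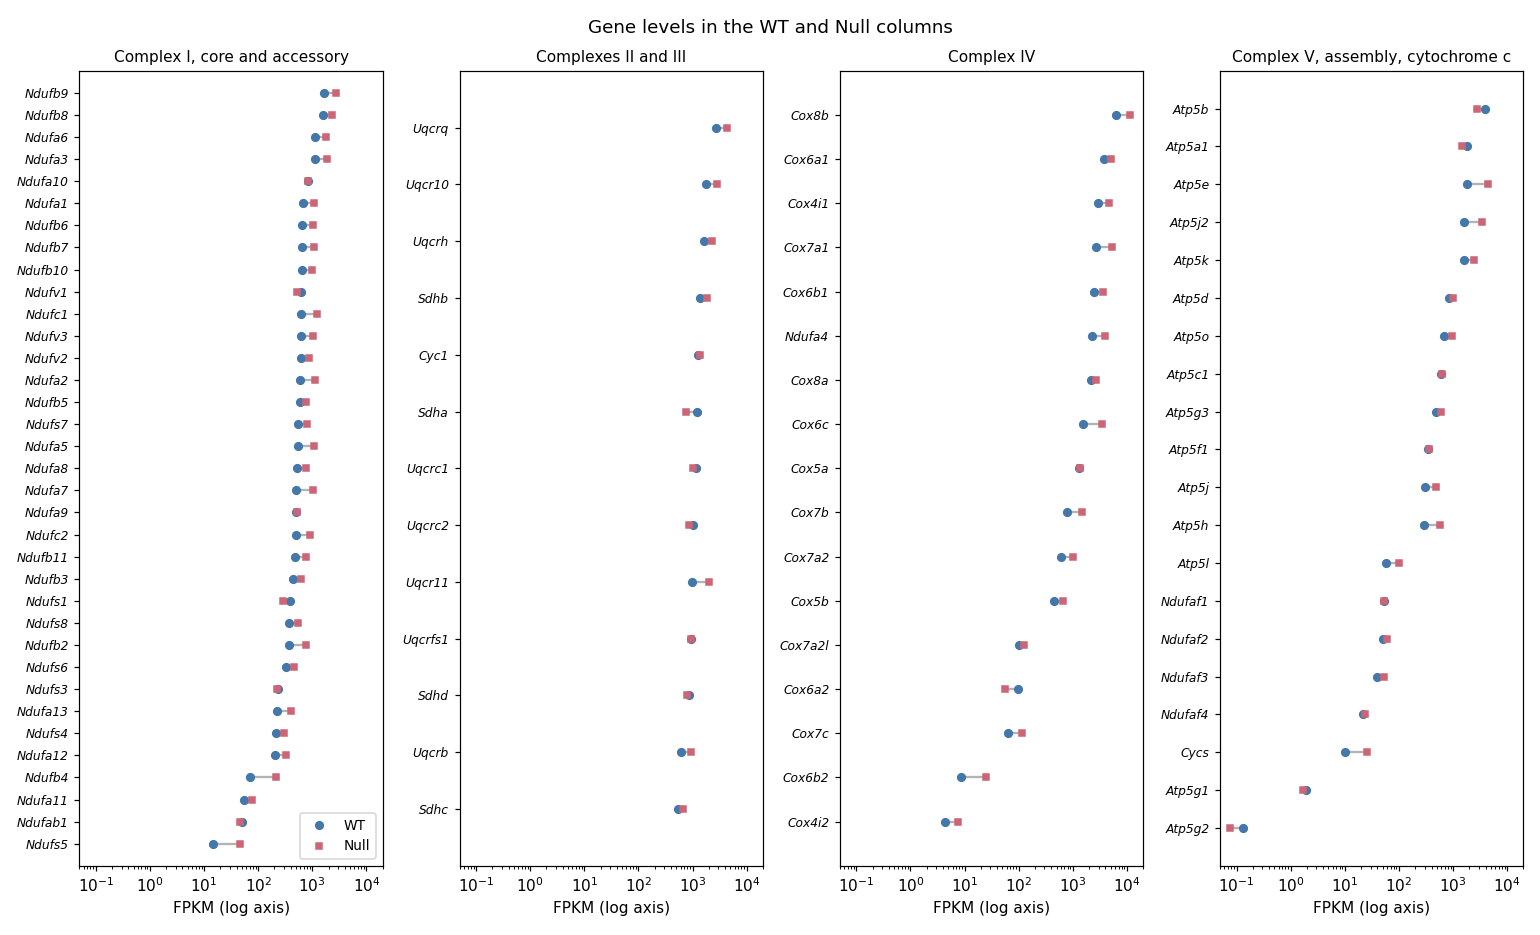
FPKM (log axis) of the genes named on the vertical axis in the WT column (circles) and the Null column (squares), ordered by WT level within each panel. Cox7b2 and Cox8c, at 0 in at least 1 column, are not drawn. Most squares lie to the right of their circles, while Sdha, Atp5b, Atp5a1, Ndufs1, Ndufv1 and Cox6a2 lie the other way.

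Most subunits (65 of 80) were higher in the Null column, while those that form the catalytic cores of complexes I to III centred near 0, with 6 of 13 above it. The median log2 ratio of the 80 measured subunits was 0.60, beside 0.01 over all 11597 genes. By 1.5-fold or more 41 subunits (51.2%) were higher and 2 were lower, where 7.87% of all genes tested were higher and 6.75% lower. From 2-fold the count was 12 subunits higher and 0 lower, with 2.17% and 1.65% of all genes. The scaling of the columns bears on these counts. Scaled to the same total FPKM, 20 subunits were higher and 4 lower, where 4.04% of all genes were higher and 13.97% lower. With quantile normalization 18 were higher and 5 lower, beside 7.28% and 6.99% of all genes. The subunit median was then 0.38 and 0.28. Scaling to the same total lowered the median of all genes to -0.18, from which the subunit median stood 0.56 higher.

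Other genes of the same WT level did not show such ratios as a group. The 26 subunits at 1000 FPKM or more in WT had a median log2 ratio of 0.61, and 14 of them were higher in Null by 1.5-fold. The 44 other genes at that level had a median of 0.02, and 9 of them were higher. Between 100 and 1000 FPKM, 44 subunits had a median of 0.56 and 628 other genes one of 0.08. The order of the subunits by level was similar in both genotypes, with a Spearman rho of 0.94 over 80 genes that share the same 2 columns. Over all 11597 genes tested rho was 0.95, so this is not particular to the subunits.

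**Figure D2:**
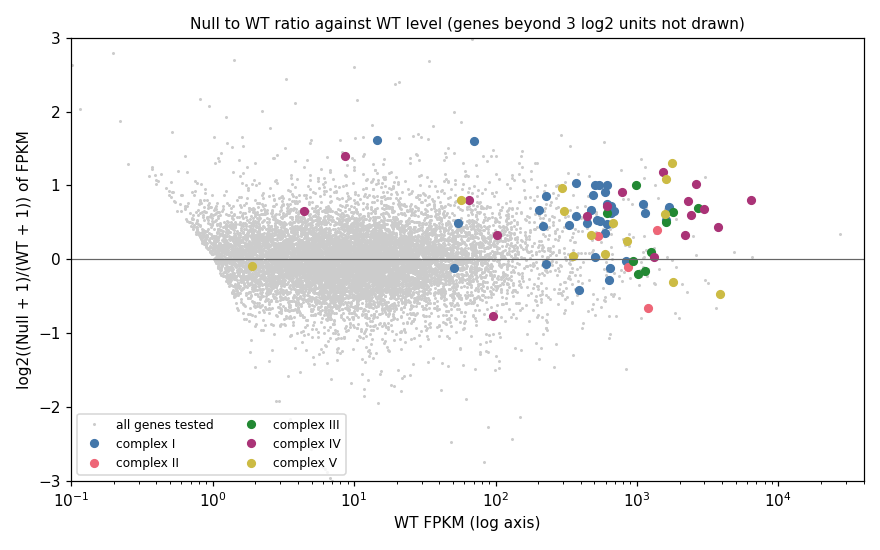
Log2 ratio of Null to WT against WT FPKM (log axis) for all genes tested (grey) and for the subunits of each complex (coloured). The coloured points lie mostly above 0 at every WT level from 100 FPKM up, while the grey points centre near 0.

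The deposited table opens with 331 genes that were higher in Null, in falling order of the ratio, continues with 396 that were lower, and then gives the other 21825 almost entirely in alphabetical order. How the opening genes were chosen is not given in the sources used here. Of the 83 subunits, 16 (19.3%) stood among the 331, which are 1.47% of all genes, and 0 stood among the 396, which are 1.76%. Of all 22552 genes 10955 were below the expression filter, but only 3 of the 83 subunits, so these shares do not have a like base. The ratio alone did not set the choice, since Ndufs5, 3.21 times as high in Null without a pseudocount, and Cox7b, 1.88 times as high, stood in the alphabetical part, whereas Atp5l, 1.76 times as high, stood in the opening part.

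Complex I, the entry point for electrons from NADH, split by role. Its 7 measured core subunits centred on a log2 ratio of -0.06 (median), with 0 of 7 past 1.5-fold, and its 29 accessory subunits had a median of 0.67, with 19 higher and 0 lower. Ndufs1, the large subunit that holds several iron-sulfur clusters, was at 390.4 (WT) and 292 FPKM (Null) (-0.42). Ndufv1, which binds NADH, was at 629.8 and 519 FPKM (-0.28), and Ndufs3 was at 228 and 219 FPKM (-0.06). These subunits were lower in Null by less than 1.5-fold. Smaller iron-sulfur proteins of the core were higher in Null: Ndufv2 at 612 and 853 FPKM (0.48), Ndufs7 at 547 and 787 FPKM (0.52), and Ndufs8 at 371 and 556 FPKM (0.58), just inside 1.5-fold.

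Accessory subunits surround that core and stabilise it. The largest ratios belonged to Ndufs5, at 14.4 (WT) and 46.3 FPKM (Null) (1.62), and to Ndufb4, at 70.3 and 215 FPKM (1.60). RefSeq lists named copies of both genes, and the part of shared reads in their levels and ratios was not tested. Next came Ndufb2 at 368 and 751 FPKM (1.03), Ndufa7 at 509 and 1027 FPKM (1.01), Ndufc1 at 617 and 1240.2 FPKM (1.01), and Ndufa5 at 543 and 1092 FPKM (1.01). All 6 were at least 2-fold higher in Null, and 13 further accessory subunits were between 1.5-fold and 2-fold higher. The smallest of those were Ndufa6 (1146 and 1769.7 FPKM, 0.63), Ndufb10 (652 and 1009 FPKM, 0.63) and Ndufa1 (683 and 1075 FPKM, 0.65). The most abundant complex I subunits in WT, Ndufb9 (1679.6 and 2742 FPKM, 0.71), Ndufb8 (1605 and 2313 FPKM, 0.53) and Ndufa6, followed the same direction. The other 9 of the 13 ran from Ndufb11 (474 and 752 FPKM, 0.66) through Ndufa12, Ndufb6, Ndufb7, Ndufa3, Ndufv3, Ndufa13 and Ndufc2 to Ndufa2 (597 and 1123 FPKM, 0.91). A further 7, among them Ndufb8, were higher by less than 1.5-fold: they ran from Ndufb5 (590.3 and 757 FPKM, 0.36) through Ndufs4, Ndufs6, Ndufa11 and Ndufb3 to Ndufa8 (518 and 752 FPKM, 0.54). A few accessory subunits did not. Ndufa9 was at 504 and 514 FPKM (0.03), Ndufa10 at 832 and 819 FPKM (-0.02), and Ndufab1, the acyl carrier protein of mitochondria, at 51.2 and 47.2 FPKM (-0.12).

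The 4 assembly factors of complex I, which help to build it but do not stay in it, were expressed at a lower level and differed less. Ndufaf1 was at 52.1 (WT) and 52.5 FPKM (Null) (0.01), Ndufaf4 at 21.7 and 24.1 FPKM (0.14), Ndufaf2 at 50.8 and 60.4 FPKM (0.25), and Ndufaf3 at 39.8 and 53.8 FPKM (0.43). Their median log2 ratio was 0.19, against 0.63 for the 36 complex I subunits, and 0 of 4 were past 1.5-fold. Scaled to the same total FPKM the assembly factor median was -0.01, beside -0.18 for all genes. The 7 further complex I assembly genes found in the table, of 9 listed, had a median of 0.29 with none past 1.5-fold, from Acad9 (22.8 and 15.3 FPKM, -0.55) to Tmem126a (84.3 and 126 FPKM, 0.58).

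Complex II, succinate dehydrogenase, is the enzyme shared with the citric acid cycle, and its 4 subunits did not move as 1 group. Sdha, the flavoprotein that oxidises succinate, was lower in Null by more than 1.5-fold, at 1189 (WT) and 756 FPKM (Null) (-0.65). Sdhd, a membrane anchor, was at 867 and 803 FPKM (-0.11). The other anchor Sdhc was at 535 and 666 FPKM (0.32), and the iron-sulfur subunit Sdhb at 1381 and 1824 FPKM (0.40). The median of 0.10 changed sign to -0.11 with columns scaled to the same total, and to -0.17 with quantile normalization. That of all genes was -0.18 with equal totals and -0.002 with quantile normalization. Sdha was the only complex I, II, III or V subunit that was lower by 1.5-fold as deposited.

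In complex III, which moves electrons from ubiquinol to cytochrome c, the same split appeared. The small accessory subunits were all higher, with a median of 0.64 over 5 genes, of which 4 were past 1.5-fold. Uqcr11 was at 988 and 1982 FPKM (1.00), Uqcrq at 2684 and 4336 FPKM (0.69), Uqcr10 at 1804 and 2804 FPKM (0.64), Uqcrb at 618 and 956 FPKM (0.63), and Uqcrh at 1594 and 2271 FPKM (0.51). The subunits that carry the redox centres lay near 0, with cytochrome c1 (Cyc1) at 1261 and 1355 FPKM (0.10) and the Rieske iron-sulfur protein (Uqcrfs1) at 935 and 922 FPKM (-0.02). The large core proteins were slightly lower, Uqcrc1 at 1137 and 1016 FPKM (-0.16) and Uqcrc2 at 1012 and 878 FPKM (-0.20). Cycs, the cytochrome c that shuttles from complex III to complex IV, was listed at 10.1 and 25.2 FPKM (1.24), far below Cyc1 per length. Copies of Cycs were not looked for, and the part of reads shared with them in its level and ratio was not tested.

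Taken over complexes I to III, the 13 subunits that hold redox centres or form the conserved core of complex I had a median of -0.02, with 0 higher and 1 lower past 1.5-fold. The median was -0.23 with either scaling of the columns, and that of the complex I accessory subunits 0.46 with equal totals and 0.39 with quantile normalization. For all genes it was -0.18 with equal totals and -0.002 with quantile normalization. Cytosolic ribosomal protein genes had a median log2 ratio of 0.90, and 51 of 69 measured were higher by 1.5-fold. Their median level in WT was 28.3 FPKM, against 617 FPKM for the subunits. Of 83 such genes in the table, 14 were below the filter. The part of reads shared with gene copies in these levels and ratios was not tested. Mitochondrial ribosomal protein genes had a median of 0.21, with 11 of 75 higher. Lengths of mRNAs are not among the values used here, and their part in the split between large core and small accessory subunits was not tested.

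**Figure D3:**
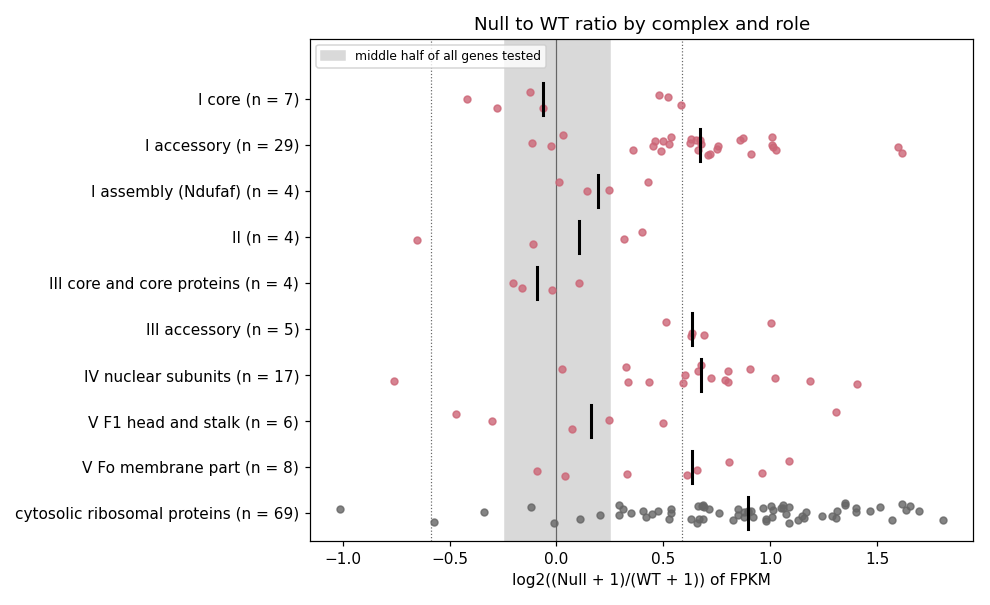
Log2 ratio of Null to WT for each measured gene, grouped by complex and role, with medians as black bars, the 1.5-fold lines dotted and the middle range (25th to 75th percentile) of all genes shaded. Core subunits of complexes I and III and all of complex II centre in or near the shaded range. Accessory, complex IV and membrane-part subunits and the cytosolic ribosomal proteins centre to its right.

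Complex IV, cytochrome c oxidase, has a catalytic core encoded in mitochondrial DNA, and all its nuclear subunits surround that core. It had the highest median of the 5 complexes, 0.67 over 17 measured subunits, with 12 higher and 1 lower by 1.5-fold. Cox6c was at 1525 (WT) and 3468 FPKM (Null) (1.18), Cox7b at 780.1 and 1464 FPKM (0.91), and Ndufa4, named for complex I but a subunit of complex IV, at 2310.0 and 3989 FPKM (0.79). Cox6b1 was at 2424 and 3680.5 FPKM (0.60), Cox5b at 442 and 667 FPKM (0.59), and Cox7c at 64.5 and 113 FPKM (0.80). Cox5a, a constitutive subunit without a tissue isoform, was at 1318 and 1342 FPKM (0.03), and Cox7a2l, which joins complexes III and IV into supercomplexes, at 102 and 128 FPKM (0.32). The testis isoform gene Cox6b2 was at 8.69 and 24.7 FPKM (1.41). The testis isoforms of subunits 7b and 8 were below the expression filter, with Cox7b2 at 0 (WT) and 0.0981 FPKM (Null), and Cox8c at 0 in both columns.

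Several complex IV subunits come in isoform pairs, 1 of them typical of heart and skeletal muscle or of lung. Brown fat expressed the muscle-type isoforms of subunits 7a and 8, and the general isoforms of subunits 4 and 6a. Cox8b, the muscle-type form, was the most abundant gene of the whole chain, at 6407 (WT) and 11163 FPKM (Null) (0.80), against 2172 and 2736 FPKM (0.33) for Cox8a. It took 74.7% of the pair in WT and 80.3% in Null. Cox7a1 was at 2634 and 5343 FPKM (1.02), and the general form Cox7a2 at 612 and 1012 FPKM (0.72), so that Cox7a1 took 81.1% and 84.1% of its pair. For subunit 4 the general form Cox4i1 was at 2972 and 4746 FPKM (0.67) and the lung form Cox4i2 at 4.40 and 7.53 FPKM (0.66), so that Cox4i1 took 99.9% and 99.8%. With quantile normalization the ratios were 0.44 for Cox8b, -0.07 for Cox8a, 0.59 for Cox7a1, 0.47 for Cox7a2 and 0.19 for Cox4i1.

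Subunit 6a went the other way. The general form Cox6a1 was at 3741 and 5057 FPKM (0.43), and the muscle form Cox6a2 at 96.0 (WT) and 56.2 FPKM (Null) (-0.76), the lowest ratio of any measured subunit as deposited. Cox6a2 made up 2.50% of the pair in WT and 1.10% in Null. Beside it, all 16 listed skeletal muscle fibre markers were measured. Their median log2 ratio was -0.89, 11 of 16 were lower by 1.5-fold and 0 were higher, none was at 0 in both, and their sum was 4492 (WT) and 3134 FPKM (Null). With either scaling of the columns 14 of the 16 were lower by 1.5-fold. Myoglobin (Mb), for example, was at 278 and 182 FPKM (-0.61). In tissue RNA, fewer cells of a type and less RNA per cell cannot be told apart, and the part of muscle RNA in the Cox6a2 value was not tested. The muscle-type isoforms Cox7a1 (1.02) and Cox8b (0.80) were higher in Null, and the part of muscle RNA in their values was not tested either. With quantile normalization Cox6a1 was at -0.04 and Cox6a2 at -0.88, above Sdha at -1.03.

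**Figure D4:**
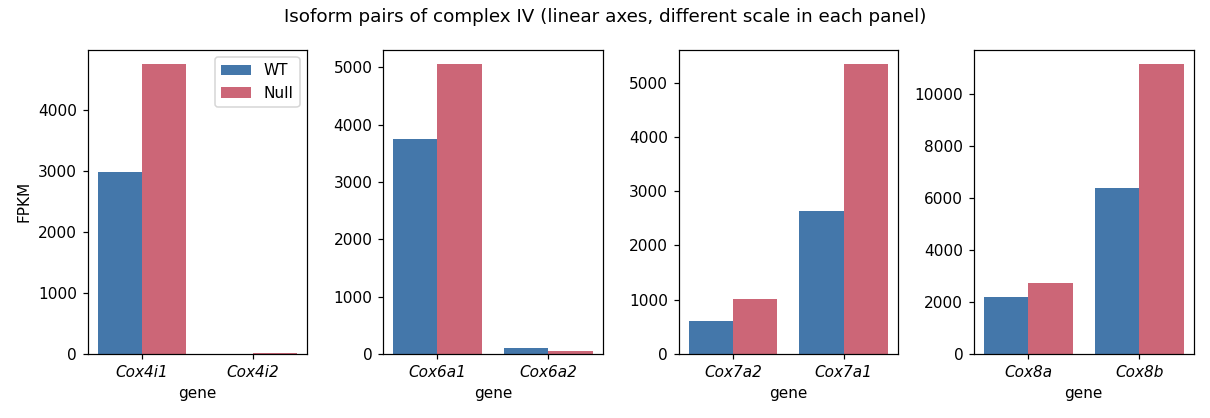
FPKM of both genes of each complex IV isoform pair in the WT and Null columns, on linear axes from 0 with a scale of their own in each panel. Cox7a1 and Cox8b exceed their partners in both genotypes, Cox4i1 and Cox6a1 exceed theirs, and Cox6a2 alone is lower in Null.

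ATP synthase has a catalytic F1 head with its stalk, and a membrane part, Fo, through which protons flow. The 6 measured genes of the head and stalk had a median of 0.16, with 1 past 1.5-fold. The 8 measured genes of the membrane part had a median of 0.63, with 5 past it. Of the outer stalk, Atp5o was counted with the head, and Atp5f1, Atp5h and Atp5j with the membrane part, so both medians depend on this classing. The catalytic subunit gene Atp5b was the most abundant of the complex in WT, though below Atp5e and Atp5j2 in Null. Atp5b was lower in Null, at 3868 and 2794 FPKM (-0.47), as was its partner Atp5a1, at 1807 and 1467 FPKM (-0.30). The rotor stalk genes Atp5c1 (591 and 622 FPKM, 0.07) and Atp5d (852 and 1009 FPKM, 0.24) were closer to 0. Atp5e, the smallest subunit of the stalk, was at 1780.2 and 4411 FPKM (1.31), the highest ratio of this complex, and Atp5o, which links head and membrane part, was at 679 and 958 FPKM (0.50).

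In the membrane part Atp5j2 was at 1595 and 3395 FPKM (1.09), Atp5h at 293 and 571 FPKM (0.96), Atp5l at 57.0 and 100.3 FPKM (0.81), Atp5j at 303 and 479 FPKM (0.66), and Atp5k at 1569 and 2395 FPKM (0.61). Atp5f1, a large subunit of the outer stalk, was at 350.5 and 360.1 FPKM (0.04). The ring through which protons pass is built from subunit c, encoded by 3 genes whose mature proteins are the same. Atp5g3 supplied 99.6% of their summed FPKM in WT and 99.7% in Null, at 475 and 597 FPKM (0.33). Atp5g1, the form whose low expression is known to limit ATP synthase content in brown fat, was listed at 1.89 and 1.71 FPKM, and Atp5g2 at 0.130 and 0.0753 FPKM, below the filter. Copies of these genes under other names were not looked for. The part of shared reads in these low levels and in the share of Atp5g3 was not tested. With both columns quantile normalized the medians were 0.13 for complex V and 0 for complex III.

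The 4 genes that share the start of a name with a subunit but were not counted as subunits ranged from -0.18 to 0.95. Cox4nb, which RefSeq names Emc8 and lists next to Cox4i1, encodes a subunit of a membrane protein insertion complex, and it was at 15.4 and 13.5 FPKM (-0.18) where Cox4i1 had 0.67. Atp5s, which RefSeq names Dmac2l, was at 11.5 and 23.1 FPKM (0.95), Atp5sl at 22.4 and 30.7 FPKM (0.44), and Ndufa4l2, a relative of Ndufa4 known from hypoxia, at 10.7 and 16.8 FPKM (0.60).

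The medians of other gene lists of the pathway lay below that of the complex I accessory subunits (0.67). Against their own complexes they did not all lie lower. Complex II assembly genes had a median of 0.31 where complex II had 0.10, and the ATP synthase list had 0.40 beside 0.41 for complex V. Both complex I assembly medians (0.19 and 0.29) lay above that of the complex I core (-0.06). Of 22 listed complex IV assembly genes 14 were in the table, with a median of -0.10, 2 higher and 1 lower by 1.5-fold. The copper chaperone Cox17 was at 791 and 1398 FPKM (0.82) and Cox16 at 20.2 and 38.1 FPKM (0.88), while Taco1, a translational activator of the mitochondrial Cox1 mRNA, was at 44.9 and 23.9 FPKM (-0.88). The 4 complex III assembly genes had a median of -0.03 with none past 1.5-fold. Of 3 complex II assembly genes 1 was higher, Sdhaf1 at 43.3 and 68.6 FPKM (0.65). Of 6 genes listed for ATP synthase assembly, regulation or association 3 were higher. These were 2010107E04Rik, which RefSeq names Atp5mpl (1133 and 2707 FPKM, 1.26), Usmg5 (196 and 387 FPKM, 0.98), and the inhibitor Atpif1 (34.8 and 56.5 FPKM, 0.68). 2010107E04Rik and Usmg5 encode small proteins associated with the enzyme rather than assembly factors. The assembly genes Atpaf1 (-0.26), Atpaf2 (-0.24) and Tmem70 (0.12) were within 1.5-fold.

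Enzymes that feed electrons to ubiquinone by other routes were mixed. Gpd2, the mitochondrial glycerol phosphate dehydrogenase that is abundant in brown fat, was at 303 and 183 FPKM (-0.72), and Etfdh, which passes electrons from fatty acid oxidation, at 482 and 301 FPKM (-0.68). Etfb, a small subunit of the flavoprotein upstream of Etfdh, was at 1587 and 2544 FPKM (0.68). With equal totals the median of this list changed from 0.16 to -0.05, while that of all genes changed from 0.01 to -0.18. Of the 8 genes listed, 1 was higher and 2 were lower by 1.5-fold. The 13 ubiquinone synthesis genes had a median of -0.05 and 0 past 1.5-fold. Of 14 measured regulators of mitochondrial biogenesis 0 were higher and 1 was lower, Ppara at 71.9 and 41.2 FPKM (-0.79). The coactivator Ppargc1a was at 15.5 and 13.2 FPKM (-0.21), Esrra at 85.5 and 94.9 FPKM (0.15), Nrf1 at 4.27 and 5.13 FPKM (0.22), Gabpa at 19.8 and 23.9 FPKM (0.27), and Tfam at 15.9 and 16.3 FPKM (0.03). The median of these regulators, 0.07, was -0.13 with equal totals, beside -0.18 for all genes.

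The factor NRF1 is known to bind promoters of respiratory chain genes. Promoter sequences (RefSeq, GRCm38.p6, 250 bases before to 50 after the start) were matched for 68 of the 83 subunits. The core of the NRF1 motif, GCGCA followed by any base and GCGC, searched on both strands with overlapping matches allowed, was found for 17 of the 68 subunit genes (25%), for 5.19% of 27025 genes with a promoter, and for 12.1% of the 9100 that were expressed at a mean of at least 1 FPKM. For the YY1 motif AAGATGGCG the shares were 10.3%, 1.64% and 3.81%, for the ETS motif CCGGAAGT of GABPA 7.35%, 4.31% and 9.57%, and for the ERR motif TCAAGGTCA 2.94% (2 of 68 genes), 0.466% and 0.286%. The median share of C and G was 57.3% in subunit promoters and 60.7% in those of expressed genes. Measured subunits with the NRF1 core had a median log2 ratio of 0.49 over 16 genes, from -0.65 to 1.62, and those without it one of 0.63 over 50 genes, from -0.47 to 1.41. The ranges of both sets overlapped.

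A few promoter stretches of 60 bases are shown, all upstream of the annotated start, because they hold the same core in genes with high and with low ratios. Capitals mark the match. The capitals begin 79 (Ndufb4), 98 (Ndufs5), 55 (Sdha), 79 (Sdhd), 117 (Cox6a1) and 141 (Atp5h) bases before the start. The whole stretches lie on the minus strand at chr16:37654413-37654472, chr4:123718250-123718309, chr13:74350261-74350320, chr9:50603894-50603953, chr5:115349041-115349100 and chr11:115420026-115420085.
Ndufb4: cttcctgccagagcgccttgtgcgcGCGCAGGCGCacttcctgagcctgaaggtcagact
Ndufs5: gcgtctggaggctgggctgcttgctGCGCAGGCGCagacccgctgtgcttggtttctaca
Sdha: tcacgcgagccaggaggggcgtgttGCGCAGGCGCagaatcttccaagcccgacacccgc
Sdhd: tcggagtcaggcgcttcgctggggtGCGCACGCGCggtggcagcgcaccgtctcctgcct
Cox6a1: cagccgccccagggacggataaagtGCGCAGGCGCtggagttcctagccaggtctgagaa
Atp5h: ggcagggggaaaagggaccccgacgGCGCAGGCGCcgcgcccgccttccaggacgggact
The match in these windows was the same 10 bases for Ndufb4 and Ndufs5, with log2 ratios of 1.60 and 1.62, as for Sdha, with -0.65. Ndufb4 and Ndufs5 have named copies, and the part of shared reads in their ratios was not tested. A match of letters is a description of the sequence and does not show binding in this tissue.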

How the data were processed

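Per the submitters' processing notes the tools included CASAVA, TopHat, BWA, edgeR and DESeq, with the build mm9. Their roles and versions, and the annotation, are not stated. In the authors' table mRNA values are FPKM, per the file headers, in 1 column per genotype for 22552 genes. Whether the 3 libraries of a genotype were pooled or averaged is not stated. The authors' microRNA table holds a signal headed RPM and also p-values and a Null to WT ratio per microRNA; only the RPM of miR-193b was used, since the columns sum to more than RPM allows.

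Ratios were computed as log2((Null + 1)/(WT + 1)) with a pseudocount of 1 FPKM over genes whose mean reached 1 FPKM, in Python 3.11.15 with pandas 2.3.3, and checked on simulated data. Alternatives were a pseudocount of 0.1 FPKM, a mean of at least 5 FPKM, no filter, quantile normalization, columns scaled to the same total, and classing by symbol. Members and lists were chosen with earlier results of these data known. The genes named were, per complex, the most abundant, those past 1.5-fold (the extremes where there were many), those nearest to 0, the isoform pairs, and every assembly factor; the values of 1 gene are not reported here. Genes with near-identical copies are uncertain, since the authors' handling of shared reads is not stated. RefSeq tables (GRCm38.p6) gave sequences and names only.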

Additional observations from a re-analysis of the deposited data

How the results depend on the processing

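With a pseudocount of 0.1 FPKM, a mean of at least 5 FPKM, no filter, or genes classed by symbol, each of the 9 summary values (medians and counts) moved by at most 0.2 on the log2 scale or 1.5 times. The scaling of the columns moved most of them. With quantile normalization the medians were 0.28 for all subunits, 0.34 for complex I, -0.17 for complex II, 0 for complex III, 0.44 for complex IV and 0.13 for complex V, with 18 subunits higher and 5 lower (7.28% and 6.99% of all genes). With columns scaled to the same total FPKM they were 0.38, 0.41, -0.11, 0.30 and 0.20 for all subunits and complexes I, II, III and V, and -0.014 for the assembly factors, with 20 subunits higher and 4 lower (4.04% and 13.97% of all genes). Relative to the median of all genes in that setting, complex II stood at 0.07 and the assembly factors at 0.17. Isoform shares moved by less than 5 percentage points under quantile normalization. Over 89 genes, the sign differed for 9 with quantile normalization and for 7 with equal totals, and for 0 under the settings of pseudocount and filter. Among the 70 subunits at 100 FPKM or more in WT, chosen after seeing the data, 35 were higher and 1 was lower. Centring on protein length was not run, because no protein lengths were at hand. No paired analysis was possible because the columns carry no replicates, and for the same reason no replicate could be left out. Depth is unknown, and no interval can be given.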

Other observations

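Subunits listed far below the rest of their complex often had a named copy elsewhere in the genome. Of the subunits without a tissue-restricted role, 7 were measured under 100 FPKM in WT: Ndufs5, Ndufab1, Ndufa11, Ndufb4, Cox7c, Atp5l and Atp5g1. For 6 of these 7, all but Atp5g1, RefSeq lists at least 1 gene or pseudogene under the same symbol followed by -ps, b or c, such as Ndufs5-ps, Ndufb4b and Cox7c-ps1. The same held for 6 of the 70 subunits at 100 FPKM or more, among them Uqcrh (1594 FPKM) and Atp5k (1569 FPKM). Symbols miss copies named otherwise, and the part of shared reads in these levels and ratios was not tested. The split at 100 FPKM was made after the values were seen.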
